A study of Mus musculus with 11 samples.

Results

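A set of 10 genes that mark the embryonic nephron or a dedifferentiated tubule were followed across the cell classes of injured and uninjured mouse kidney. They were chosen by symbol: *Sox4*, *Sox9*, *Sox11*, *Cd24a*, *Prom1*, *Pax2*, *Pax8*, *Cited2*, *Lhx1* and *Npnt*. All 10 were found, each once, among the 28692 genes of the deposited matrices. The data were 11 droplet single-cell RNA libraries from male C57Bl/6 mice, 10 weeks old at the operation, of which 5 came from naive controls matched for age, strain and sex. A further 3 came from kidneys 28 days after unilateral ischemia-reperfusion (UIR, the left pedicle clamped for 30 min), and 3 from kidneys 28 days after unilateral ureteral obstruction (UUO, the left ureter tied for good). The controls had no operation, so surgery and injury cannot be told apart. Cells were released with a protease that acts in the cold. UIR and UUO were each compared with the same 5 control libraries, and these comparisons are therefore not independent.

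The mammalian nephron forms from a cap of mesenchymal progenitors that condense around the tips of the ureteric bud, turn into epithelium and are then patterned into segments. Pax2 and Pax8 are paired-box factors needed for that program, Lhx1 acts in the renal vesicle that follows, and the SoxC factors Sox4 and Sox11 are active in the developing kidney. Sox9 is switched on in tubular cells after acute injury. CD24 and prominin-1 (CD133) are surface proteins used to mark scattered tubular cells with progenitor-like properties in the adult kidney, and nephronectin (*Npnt*) is a basement membrane ligand of integrin alpha8-beta1, through which the ureteric bud signals to the mesenchyme.

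Cells were grouped into proximal tubule (PT), loop of Henle (LOH), distal tubule (DT), collecting duct principal cells (CD-P), collecting duct intercalated cells (CD-I), failed-repair tubular cells (frTEC) and stroma, by marker genes. The UMIs (unique molecular identifiers) of each class were summed per library into a pool, and levels are given as UMIs of the gene per 1000000 UMIs of the pool (CPM). In all 40575 cells were kept, between 1858 and 2519 per control library, 4009 and 7442 per UIR library and 3797 and 5281 per UUO library. The libraries held 91920461 to 110914244 UMIs (control), 82522753 to 117043590 (UIR) and 49503312 to 60918546 (UUO), and any pair of libraries shared 0 to 17 cell barcodes. Barcodes over the mitochondrial limit made up 57.1 to 79.0% in control, 23.9 to 37.1% in UIR and 3.15 to 7.97% in UUO libraries, so the kept control cells were a smaller part of what was captured. The PT class held 6907 control, 2571 UIR and 190 UUO cells, and the UUO pools of PT rested on 42540 to 599218 UMIs. For frTEC only 3 control libraries gave a pool of 20 or more cells (74 cells in all, against 547 in UIR and 194 in UUO), and for stroma 4 did (118 cells, against 825 and 864). Each class carried its own markers, but injury changed what the classes held. Control LOH cells sat at 99.6% in a sub-cluster led by *Egf*, whereas UIR cells sat at 73.3% in one led by *Slc12a1* and *Umod* and at 20.4% in one led by *Psca* and *Mmp7*, and UUO cells sat at 49.9% and 49.1% in the same pair. In control, 62.2% of DT cells were in a sub-cluster led by *Slc12a3* and *Pvalb*, whereas 89.7% of UIR and 94.7% of UUO cells were in one led by *Tmem52b*. In CD-P the sub-cluster led by *Sprr2f* held 41.5% of UIR, 93.5% of UUO and none of the control cells. In CD-I a sub-cluster led by *Adgrf5* and *Clcn5* held 29.0% of UIR, 71.4% of UUO and none of the control cells. The part of these shifts in the changes given below for each class was not tested. Fewer cells of a state and less RNA per cell cannot be told apart in such sums.

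Of 70 pairs of a gene and a class, 60 had enough UMIs to be tested in each injury. Against control, 34 pairs passed in UIR (27 higher, 7 lower) and 38 in UUO (28 higher, 10 lower) at an adjusted p below 0.05 in edgeR's quasi-likelihood test. These counts were set against the share of all tested genes called in the same class. In LOH 8 of 10 members passed in either injury, where 32.3% (UIR) and 37.2% (UUO) of all genes did. In DT 8 of 9 passed in UIR and 9 of 9 in UUO, against 36.7% and 42.6% of all genes. In CD-P 7 and 8 of 9 passed, against 16.4% and 32.2%. In CD-I 5 of 9 passed in each, against 12.5% and 22.9%. In PT 4 of 9 passed in UIR and 3 of 9 in UUO, against 11.6% and 5.43%. With free RNA subtracted, as described below, *Sox4* and *Sox9* still passed in PT in both injuries. *Lhx1* in UIR then did not (-0.51, edgeR adjusted p = 0.07792), and *Cd24a* could not be tested. In frTEC 1 of 9 passed in UIR and 2 of 9 in UUO, against 0.784% and 2.57%. In stroma 1 of 5 and 3 of 5 passed, against 16.7% and 18.1%. In stroma in UIR the share was near that of all genes. The median log2 fold change of the members was 1.82 (UIR) and 2.08 (UUO) in LOH and 1.44 and 1.63 in DT, beside medians over all genes of 0.09, 0.08, 0.04 and 0.05. In CD-P it was near zero (-0.19 and -0.15), because some members rose while others fell.

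**Figure D1:**
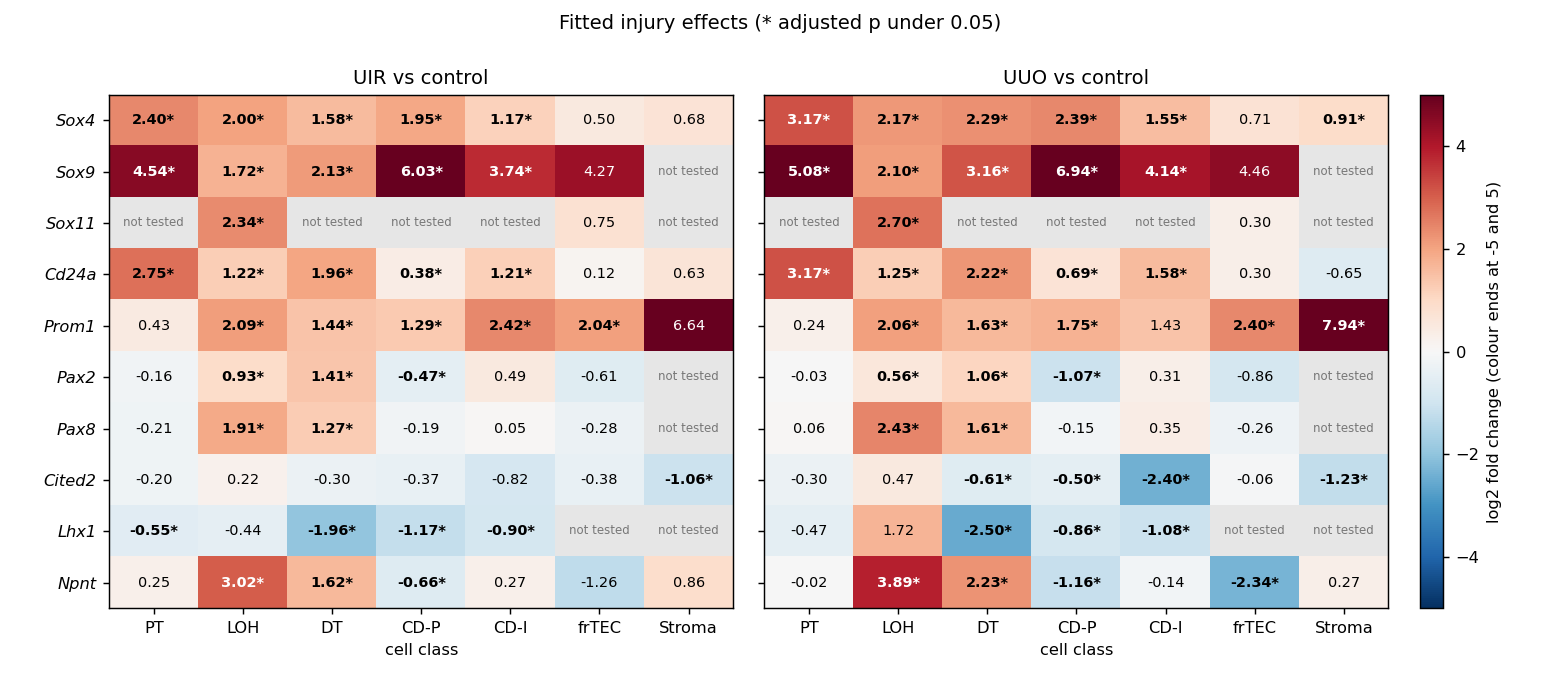
Fitted log2 fold change of each gene in each cell class for UIR against control (left) and UUO against control (right), printed in each cell with the colour ending at -5 and 5, an asterisk at an adjusted p below 0.05, and grey where too few UMIs were counted; values against control pools with 0 to 3 UMIs depend on the prior count and give no fold. *Sox4* and *Cd24a* passed upward from PT to CD-I in both injuries, *Lhx1* downward in DT, CD-P and CD-I, and *Pax8* and *Npnt* upward in LOH and DT. The *Cd24a* level of PT in UIR was 0.793 to 0.916 times that of free RNA estimated from empty droplets.

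*Sox4* (ENSMUSG00000076431, GRCm38 chromosome 13, 28948919 to 28953713, minus strand), a SoxC transcription factor of undifferentiated cells, rose after both injuries in every tubular segment from the PT to the collecting duct. The promoter is shown because this gene rose in 5 of 7 classes in UIR and in 6 of 7 in UUO. It is the RefSeq window on GRCm38.p6, chr13:28953650-28953949 on the minus strand, from 250 bases before the start of the transcript to 50 bases after, with the one match to the TEAD-type motif GGAATG, 168 bases before the start, in capitals:

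Sox4: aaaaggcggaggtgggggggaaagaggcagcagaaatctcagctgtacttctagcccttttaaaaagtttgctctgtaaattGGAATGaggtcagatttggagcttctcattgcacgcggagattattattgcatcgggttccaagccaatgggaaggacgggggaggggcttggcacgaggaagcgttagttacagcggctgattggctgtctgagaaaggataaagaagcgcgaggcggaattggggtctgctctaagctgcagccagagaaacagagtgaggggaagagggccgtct

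On either strand 14.7% of 32851 RefSeq promoter windows of this length held GGAATG, and the Sox-type motifs ACAAAG (18.7% of windows) and AACAAT (10.7%) were not in this one.

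In LOH, *Sox4* stood at 101, 140, 157, 192 and 117 CPM in the control libraries Ctrl, N1, N2, AN1 and AN2. It stood at 629, 640 and 737 CPM in UIR and at 709, 835 and 719 CPM in UUO. Every injured library lay above every control library, and the log2 fold change was 1.999 ± 0.16 (SE) in UIR (edgeR adjusted p = 6.107e-10) and 2.17 ± 0.16 in UUO (9.296e-11). In DT the level went from 110 ± 23 CPM (SD, n = 5) to 430 ± 109 (n = 3) and 731 ± 62 (n = 3). The log2 fold change there was 1.58 in UIR and 2.29 in UUO, and UUO lay above UIR by 0.71 ± 0.16 (adjusted p = 0.01169). That excess of UUO over UIR was lost without UIR 1 (0.60, adjusted p = 0.1012) or UUO 1 (0.66, 0.06107), and with doublets kept (0.55, 0.08131). In CD-P the level went from 120 ± 29 CPM to 494 ± 105 and 676 ± 62, and in CD-I from 195 ± 23 CPM to 530 ± 169 and 724 ± 72. The changes were 1.95 and 2.39 in CD-P and 1.17 and 1.55 in CD-I on the log2 scale, again with no overlap between control and injured libraries. In both collecting duct classes these changes moved with the sub-clusters that held no control cells.

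*Sox4* was lowest in PT. The 5 control pools held 4.11, 3.50, 3.28, 2.95 and 2.23 CPM, the UIR pools 12.7, 20.2 and 16.04 CPM and the UUO pools 47.0, 33.4 and 29.6 CPM. The log2 fold change was 2.40 ± 0.19 in UIR (adjusted p = 8.517e-09) and 3.17 ± 0.34 in UUO (2.73e-06), but the UUO value rested on 34 UMIs. Markers of other classes moved with it: failed-repair markers summed to 6.28 to 18.7 CPM in control, 74.1 to 94.9 in UIR and 155 to 541 in UUO pools of PT, and their part in the result was not tested. Free RNA, estimated from empty droplets and from markers of leukocytes, endothelium and stroma, made up 8.80 to 17.8% of control, 9.30 to 17.0% of UIR and 4.01 to 21.8% of UUO pools of PT. The observed *Sox4* level was 1.56 to 3.78 times the level free RNA would give in control, 1.19 to 2.17 times in UIR and 1.20 to 5.49 times in UUO. That free RNA level itself was higher after injury, at 0.926 to 2.23 CPM in control, 9.31 to 10.7 in UIR and 6.08 to 39.2 in UUO. In the unnumbered UIR library it was 10.7 CPM beside 12.7 CPM measured. With free RNA subtracted, the fitted rise was 2.20 in UIR (adjusted p = 0.001773) and 3.66 in UUO (0.001631). It rests on small remainders over the free RNA level.

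In frTEC *Sox4* stood at 159, 418 and 180 CPM in 3 control pools, at 298 to 386 CPM in UIR and at 375 to 451 CPM in UUO, and the groups were not separated (log2 0.50 and 0.71, adjusted p = 0.5316 and 0.333). Within the thin limb-like part of frTEC, with 2 control pools, it went from 154 and 180 CPM to 344 to 364 in UIR and 424 and 436 in UUO, and passed (log2 1.07 and 1.33, adjusted p = 0.003574 and 0.0009384). In this sub-class 3 of 8 members tested passed in each injury, beside 6.57% and 6.03% of all genes. In stroma the control pools held 75.1, 197, 183 and 214 CPM, the UIR pools 270.5, 224.9 and 199.6 CPM and the UUO pools 404, 213 and 223 CPM. The ranges overlapped, and the call in UUO (log2 0.91, adjusted p = 0.03642) was lost in 9 alternatives, including without the unnumbered UUO library (0.57, 0.1699), without control Ctrl (0.63, 0.1119), N1 (0.97, 0.06152) or N2 (1.02, 0.05505). The make-up of stroma moved with it. The stroma cluster Fibro 3, named by *Pdgfrb*, *Notch3*, *Gucy1a1* and *Cspg4*, held 80.2% of control and 25.1% of UUO cells. Fibro 1, named by *Col1a1*, *Dcn*, *Col1a2* and *Lum*, held 0.826% and 22.6%. Within Fibro 3 *Sox4* overlapped between control (193, 182 and 216 CPM) and UUO (309, 159 and 205 CPM), and the UIR pools held 198.7, 36.5 and 71.07 CPM. In Fibro 1, which gave no control pool, *Sox4* stood at 301.5 to 341.5 CPM in UIR and 233 to 523 CPM in UUO.

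**Figure D2:**
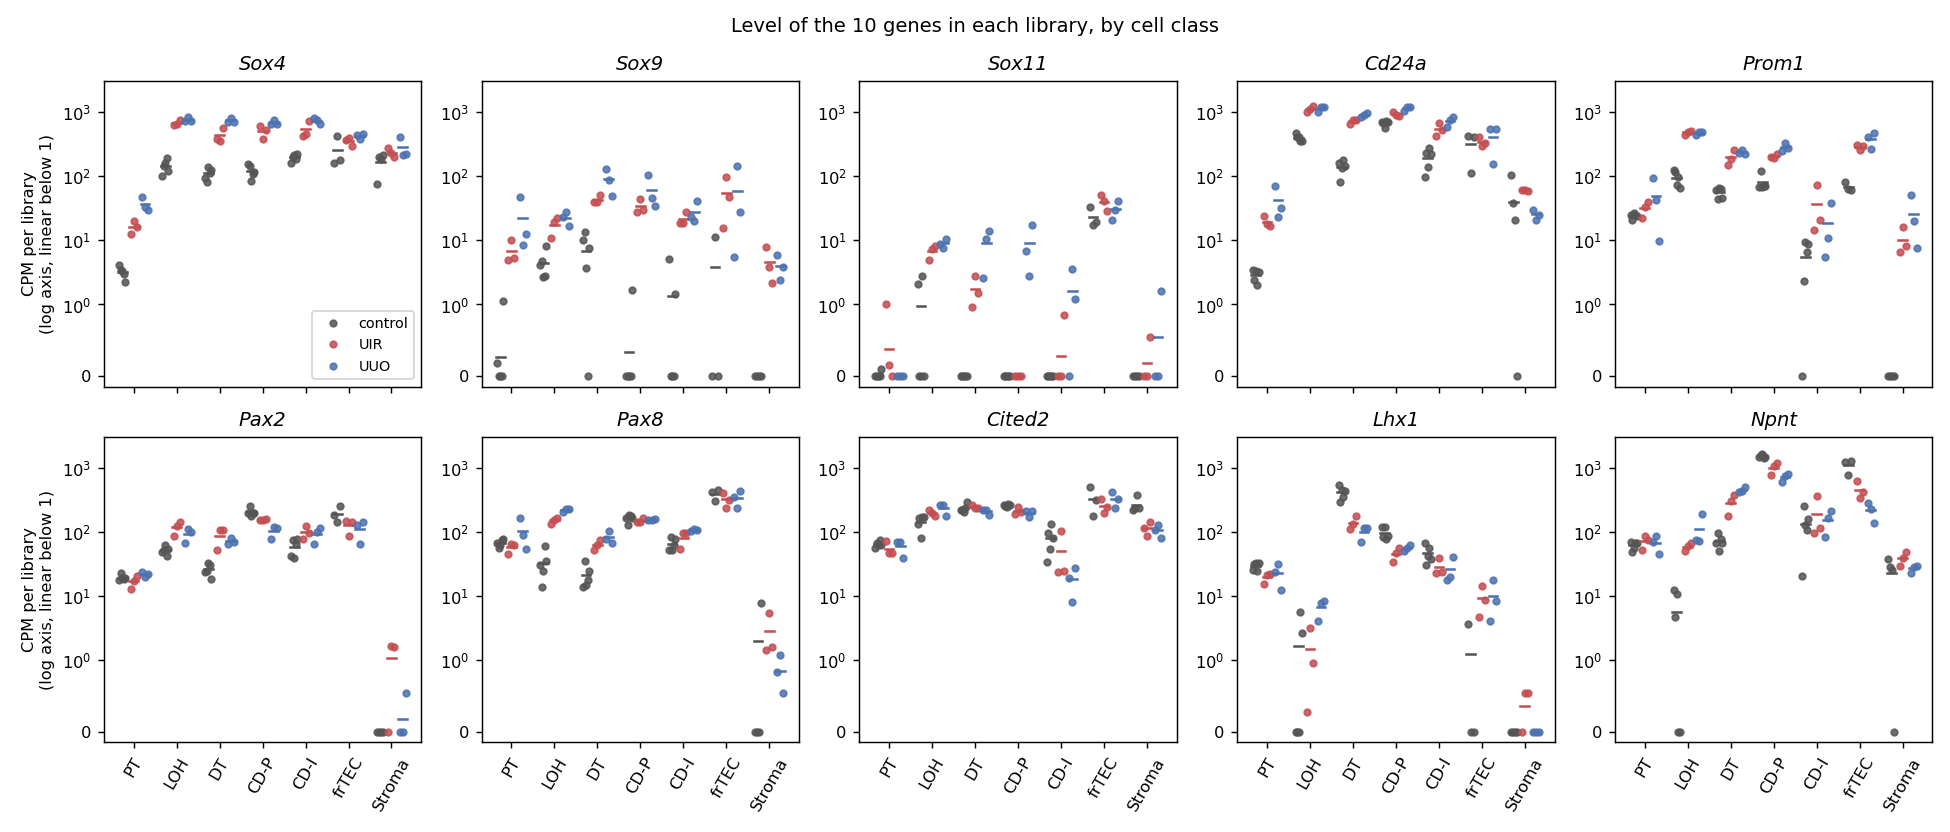
Level of each of the 10 genes (panels) by cell class, in CPM on a log axis that is linear below 1, with 1 point per library, a dash at the group mean and the group as the colour. The *Sox4* points of UIR and UUO lie above all control points in PT, LOH, DT, CD-P and CD-I, and the *Lhx1* points of UIR and UUO lie below all control points in DT and CD-P.

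*Sox9* (ENSMUSG00000000567, chromosome 11, 112782224 to 112787760, plus strand), the injury-induced Sox factor, was low in control tubules. In the PT pools it read 0.179, 0, 0, 0 and 1.12 CPM in Ctrl, N1, N2, AN1 and AN2, then 5.01, 9.95 and 5.25 CPM in UIR and 47.0, 8.34 and 12.3 CPM in UUO. All 6 injured pools lay above the control pools, with log2 fold changes of 4.54 ± 0.55 (adjusted p = 5.136e-06) and 5.08 ± 1.03 (0.004035). The UUO pools held 12 *Sox9* UMIs in all, and without UUO 2 (5.01, 0.05216) or with cells named one by one (4.38, 0.05558) the call was lost. Observed *Sox9* was 5.33 to 9.24 times the free RNA level in UIR and 12.2 to 14.9 times in UUO, and the rises held after subtraction (4.49 and 5.19). The failed-repair markers given for *Sox4* were higher in these same PT pools (6.28 to 18.7 CPM in control, 74.1 to 94.9 in UIR and 155 to 541 in UUO), and their part in the *Sox9* rise was not tested.

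In the distal nephron *Sox9* rose as well. In LOH the control pools held 2.70 to 8.01 CPM, the UIR pools 10.8, 19.2 and 22.4 CPM and the UUO pools 23.2, 27.2 and 16.6 CPM (log2 1.72 and 2.10, adjusted p = 0.009553 and 0.001261). The LOH call in UIR was lost with both N control libraries left out (1.59, 0.07322). In DT control pools held 9.92, 13.3, 3.70, 0 and 7.55 CPM, and the injured pools 38.8 to 50.4 (UIR) and 129, 87.9 and 49.2 (UUO) CPM. The DT rise was 2.13 in UIR and 3.16 in UUO, with no overlap with control. UUO lay above UIR in DT by 1.03 (adjusted p = 0.01532), but these ranges overlapped and the call was lost without the unnumbered UUO library (0.65, 0.1966), the unnumbered UIR library (0.99, 0.05409) or UIR 1 (0.97, 0.07689). Control CD-P pools held 1 *Sox9* UMI in all, against 127 in UIR and 239 in UUO, ratios of 90.9 (95% counting interval 16 to 3620) and 177 (31.4 to 7000). Control CD-I pools held 3, against 122 and 105, ratios of 16.6 (5.56 to 81.7) and 25.2 (8.39 to 124). Both collecting duct classes passed in both injuries in edgeR. In frTEC the control pools held 2 UMIs and the rise was not called (adjusted p = 0.3149 and 0.2511). The injured frTEC pools spread widely, at 15.3, 97.8 and 46.8 CPM in UIR and 5.55, 142 and 27.7 CPM in UUO. That spread followed the sub-classes. In UIR the failed-repair PT-like (frPT-like) pools held 67.9, 124 and 96.4 CPM, and the thin limb-like pools 6.85, 1.42 and 1.92 CPM. This difference is a description and was not tested, and none of the 10 genes was used in the clustering.

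*Sox11* (ENSMUSG00000063632, chromosome 12, 27334264 to 27342574, minus strand), the other SoxC member, was rare in PT, LOH, DT, CD-P, CD-I and stroma. In LOH the control pools held 2 UMIs (2.05, 0, 0, 2.82 and 0 CPM), and the injured pools 4.99, 7.20 and 8.24 CPM in UIR and 8.67, 7.59 and 10.5 CPM in UUO. The ratios were 6.3 (1.72 to 52.4) and 7.78 (2.11 to 65.0), and both passed in edgeR (adjusted p = 0.01984 and 0.00526). The UIR call was lost without control N2 (2.04, 0.05806) or AN2 (2.04, 0.05738). In DT and CD-P the control pools held no *Sox11* UMI, and UUO was at least 8.74 and at least 7.39 times higher (against a floor of 3 UMIs over the control group), without a test because too few UMIs were counted. In frTEC *Sox11* was present in controls (33.3, 16.9 and 19.1 CPM) and did not pass in UIR (28.7 to 50.7 CPM, adjusted p = 0.4102) or UUO (20.8 to 41.5 CPM, 0.777).

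Among the surface markers, *Cd24a* (ENSMUSG00000047139, chromosome 10, 43578284 to 43584265, plus strand) followed *Sox4* in direction. In LOH it went from 470, 403, 400, 349 and 352 CPM in control to 1001, 1097 and 1205 CPM in UIR and 1004, 1167 and 1193 CPM in UUO. Every injured pool lay above every control pool, and the log2 fold change was 1.22 ± 0.13 in UIR (adjusted p = 6.174e-08) and 1.248 ± 0.13 in UUO (3.059e-08). In DT the control pools held 160, 81.8, 135, 176 and 144 CPM, the UIR pools 633, 733 and 750 CPM and the UUO pools 818, 892 and 942 CPM. The DT change, 1.96 and 2.22, was the largest of the distal classes for this gene. Principal cell markers in the DT pools stood at 72.1 to 231 CPM in control, 1648 to 1983 in UIR and 1289 to 1755 in UUO, and their part in the DT changes of *Cd24a* and the other members was not tested. In CD-I the level went from 191 CPM in the mean to 530 ± 122 and 724 ± 128 (log2 1.21 and 1.58). In CD-P, where control cells already held 561 to 718 CPM, it went to 864 to 979 CPM in UIR and 1032 to 1193 CPM in UUO (log2 0.38 and 0.69, adjusted p = 0.03963 and 0.0001416). The CD-P call in UIR was lost in 8 alternatives, among them a mitochondrial limit of 50% (0.15, 0.5994), and without control N1 (0.38, 0.06635), N2 (0.35, 0.07758) or AN2 (0.40, 0.05804), UIR 1 (0.38, 0.08749) or the unnumbered UIR library (0.33, 0.1664).

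In PT the *Cd24a* level is set beside that of free RNA. The pools read 2.04 to 3.49 CPM in control, 24.0, 17.7 and 16.6 CPM in UIR and 70.5, 23.4 and 32.0 CPM in UUO, and the fit gave log2 fold changes of 2.75 and 3.17 (adjusted p = 1.689e-09 and 7.657e-06). By the estimate, free RNA alone would give 26.2, 22.3 and 20.1 CPM in these UIR pools. The observed level was 0.411 to 0.991 times the expected one in control, 0.793 to 0.916 times in UIR and 0.789 to 2.21 times in UUO. Where the ratio is below 1, the estimated free RNA exceeded all that was measured, so the estimate ran high for *Cd24a*. The same estimate was used for *Sox4* and *Sox9* in PT. With free RNA subtracted too few *Cd24a* UMIs were left in PT for a test, so the part of free RNA in the rise was not tested. The *Cd24a* level of PT in UIR lay below the free RNA level in each of the 3 libraries. In frTEC *Cd24a* did not pass (control 422, 113 and 406 CPM, UIR 296 to 400 CPM, UUO 153 to 534 CPM, adjusted p = 0.9564 and 0.8185).

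**Figure D3:**
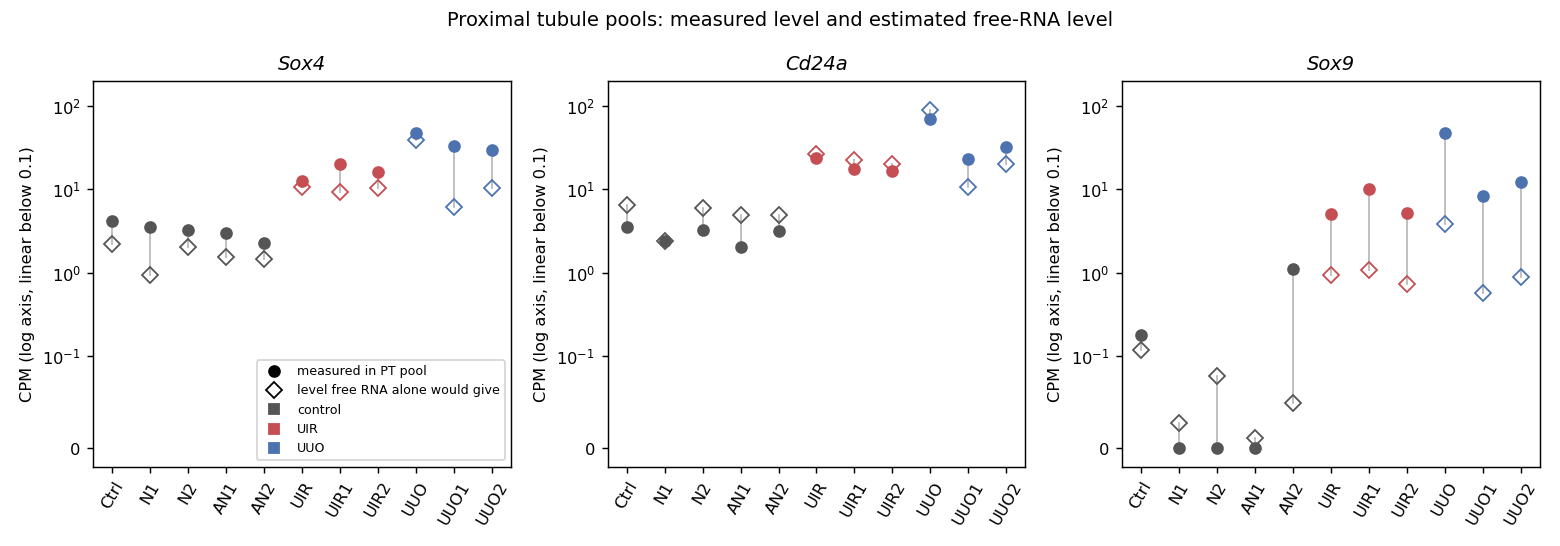
Measured level (filled circles) and the level that free RNA alone would give (open diamonds) in the PT pool of each library, in CPM on a log axis that is linear below 0.1, for *Sox4*, *Cd24a* and *Sox9*. The *Cd24a* circles lie on or below the diamonds in control and UIR, the *Sox4* circles lie above them by 1.19 to 5.49 times, and the *Sox9* circles of UIR and UUO lie above them by 5.33 to 14.9 times.

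*Prom1* (ENSMUSG00000029086, chromosome 5, 43993620 to 44102032, minus strand) encodes prominin-1, a protein of apical membrane protrusions. It rose in LOH, DT and CD-P and was the member called in frTEC in both injuries. Its RefSeq promoters are shown for that reason (GRCm38.p6, minus strand). Both start sites, at chr5:44094719-44095018 and chr5:44101687-44101986, held 1 match to the AP-1-type pattern TGANTCA, 189 and 88 bases before the start, in capitals. N stands for any base, and the match was TGAATCA at the inner and TGACTCA at the outer start. On either strand 7.81% of all windows held the pattern:

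Prom1, inner start: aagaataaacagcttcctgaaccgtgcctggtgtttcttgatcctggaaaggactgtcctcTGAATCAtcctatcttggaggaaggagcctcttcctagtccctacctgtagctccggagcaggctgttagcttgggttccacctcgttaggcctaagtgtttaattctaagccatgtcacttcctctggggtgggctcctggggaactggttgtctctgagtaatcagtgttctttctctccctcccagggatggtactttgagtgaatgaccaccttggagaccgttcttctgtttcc

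Prom1, outer start: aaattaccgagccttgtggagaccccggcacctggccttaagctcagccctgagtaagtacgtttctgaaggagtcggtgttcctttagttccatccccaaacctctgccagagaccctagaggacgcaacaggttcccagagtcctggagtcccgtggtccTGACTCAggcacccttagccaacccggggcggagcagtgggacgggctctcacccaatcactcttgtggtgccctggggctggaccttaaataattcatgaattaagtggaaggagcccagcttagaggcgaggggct

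A match of letters describes the window and does not show that a factor binds there.

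In LOH *Prom1* went from 123, 117, 73.0, 95.8 and 64.04 CPM in control to 435, 489 and 506 CPM in UIR and 439, 483 and 486 CPM in UUO, with log2 fold changes of 2.09 ± 0.16 (adjusted p = 2.314e-10) and 2.06 ± 0.16 (1.697e-10). Both injuries gave almost the same level there. In DT the controls held 44.2 to 64.7 CPM, UIR 149, 185 and 254 CPM and UUO 225, 253 and 218 CPM (log2 1.44 and 1.63). In CD-P the levels were 67.6 to 120 CPM in control, 188 to 219 CPM in UIR and 242 to 325 CPM in UUO (log2 1.29 and 1.75). Markers of principal cells and of failed repair shifted in these CD-P pools, as given below for *Pax2*. In frTEC, *Prom1* stood at 81.4, 62.1 and 61.2 CPM in 3 control pools, 298, 250 and 293 CPM in UIR and 404, 261 and 459 CPM in UUO. The log2 fold change was 2.04 ± 0.23 (adjusted p = 0.009715) and 2.40 ± 0.23 (0.00241). The UIR call was lost without control Ctrl (2.17, 0.05548) or AN2 (1.93, 0.08507), with the size hardly moved. The estimated share of free RNA was 54.6, 133 and 98.2% in these 3 control pools, an estimate that rested on 16 to 18 marker UMIs per pool, against 5.74 to 8.39% in UIR and 2.39 to 3.12% in UUO. Pools with an estimate of 50% or more were left out of the subtraction, so *Prom1* in frTEC could not be corrected and the part of free RNA was not tested. In the thin limb-like pools alone the changes were 2.59 and 2.41 (adjusted p = 1.03e-05 and 4e-05). The make-up of this sub-class differed between the groups, as given below for *Npnt*, and its part in the *Sox4* and *Prom1* results was not tested.

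*Prom1* in PT, a segment that held 20.3 to 26.5 CPM in control, was not called (UIR 22.4 to 38.8 CPM, log2 0.43, adjusted p = 0.1184; UUO 9.86 to 94.0 CPM, log2 0.24, 0.7786). In CD-I the UIR pools were unequal, at 14.6, 73.6 and 20.4 CPM against 0 to 9.28 CPM in control. That call (2.42, adjusted p = 0.0287) was lost in 9 alternatives, including without UIR 1 (1.26, 0.2363) and without control Ctrl (2.18, 0.05922), N1 (2.24, 0.07452), AN1 (2.45, 0.05605) or AN2 (2.68, 0.05057). In UUO the CD-I pools held 5.42, 10.9 and 38.3 CPM, and *Prom1* was not called (1.43, adjusted p = 0.2198). Markers of DT and of principal cells varied widely over the CD-I pools, as given below for *Lhx1*. In stroma the 4 control pools held no *Prom1* UMI, and UIR (53 UMIs) and UUO (167 UMIs) were at least 2.16 and at least 5.79 times higher. Only UUO passed (adjusted p = 0.03742, against 0.1919), and not when any 1 of the 4 control pools was left out (0.06632 to 0.09246). In UUO *Prom1* stood at 109, 53.4 and 16.9 CPM in Fibro 1, which held 22.6% of UUO and 0.826% of control stroma cells. Within Fibro 3 it stood at 2.12 to 3.06 CPM in UUO and 0 in the 3 control pools. The UUO stroma level was 1.77 to 5.34 times that of free RNA, and the UIR level 0.699 to 1.52 times.

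*Pax2* (ENSMUSG00000004231, chromosome 19, 44756045 to 44837871, plus strand), which keeps a role in the adult collecting duct, changed in opposite directions in neighbouring segments. In DT it went from 18.1 to 33.3 CPM in control to 52.4, 105 and 105 CPM in UIR and 64.4, 78.9 and 70.2 CPM in UUO (log2 1.41 ± 0.23 and 1.06 ± 0.24, adjusted p = 2.085e-05 and 0.0007337). Markers of principal cells, a class where *Pax2* is high, summed to 72.1 to 231 CPM in control, 1648 to 1983 CPM in UIR and 1289 to 1755 CPM in UUO pools of DT. Failed-repair markers there summed to 8.85 to 28.7, 159 to 319 and 242 to 351 CPM, and the part of both in the result was not tested. In CD-P the control pools held 199, 249, 179, 194 and 197 CPM, the UIR pools 152, 153 and 156 CPM and the UUO pools 77.3, 119 and 113 CPM. *Pax2* fell there by 0.47 on the log2 scale in UIR (adjusted p = 0.02869) and by 1.07 in UUO (7.839e-06). The markers of principal cells themselves were lower in the CD-P pools after injury, at 15850 to 24380 CPM in control, 7797 to 8855 in UIR and 3549 to 4032 in UUO. Failed-repair markers there summed to 0 to 8.89 CPM in control, 64.4 to 251 in UIR and 194 to 249 in UUO. The part of both in the falls of *Pax2*, *Cited2*, *Lhx1* and *Npnt* in CD-P was not tested. Nor was it tested for the rises of *Sox4*, *Sox9*, *Cd24a* and *Prom1* there. The UIR fall was lost in 10 alternatives and came to 0.01 when cells were named one by one. Without control N1, the highest pool, it was -0.39 (0.08562), and without the unnumbered UIR library, UIR 1 or UIR 2 it was -0.46 (0.08973), -0.49 (0.05848) and -0.45 (0.1094). UUO lay below UIR by -0.60 ± 0.16 (adjusted p = 0.03276), a call lost without UIR 1 (-0.58, 0.1116), UIR 2 (-0.62, 0.09265) or the unnumbered UUO library (-0.45, 0.1384). In LOH *Pax2* rose from 42.2 to 62.2 CPM in control to 87.3 to 142 CPM in UIR (log2 0.93, adjusted p = 0.0008844). The LOH rise in UUO (65.9 to 111 CPM, log2 0.56, 0.03728) was lost in 12 alternatives, among them without UUO 1 (0.40, 0.173), UUO 2 (0.56, 0.0542) or control Ctrl (0.54, 0.0894), N1 (0.55, 0.06351), AN1 (0.52, 0.07809) or AN2 (0.59, 0.05547). In PT (12.7 to 23.5 CPM over all libraries), CD-I and frTEC it was not called.

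*Pax8* (ENSMUSG00000026976, chromosome 2, 24420560 to 24475599, minus strand), the paired-box factor that adult tubules keep, rose in the segments where it had been lowest. In LOH the control pools held 30.8, 14.0, 24.3, 59.1 and 34.7 CPM, the UIR pools 134, 155 and 166 CPM and the UUO pools 204, 224 and 223 CPM. The log2 fold change was 1.91 ± 0.21 in UIR (adjusted p = 7.487e-08) and 2.43 ± 0.20 in UUO (6.248e-10). In DT it went from 13.9 to 35.4 CPM to 51.9, 62.4 and 75.8 CPM in UIR and 77.9, 103 and 66.2 CPM in UUO (1.27 and 1.61). The DT rise in UIR was lost when cells were required to have at least 1000 UMIs (0.13, 0.5392). In PT (control 55.4 to 78.3 CPM), CD-P (127 to 186 CPM), CD-I and frTEC (299 to 451 CPM) *Pax8* did not pass in either injury. In frTEC the fitted change was -0.28 ± 0.25 and -0.26 ± 0.25. Stroma held 0 to 7.92 CPM, and the injured pools lay at or below the level of free RNA (0.236 to 0.917 times), as did those for *Pax2* and *Lhx1*.

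*Cited2* (ENSMUSG00000039910, chromosome 10, 17723218 to 17725674, plus strand), a coactivator that binds CBP and p300 and limits HIF-1, was the member that fell in stroma. The control stroma pools held 215, 235, 371 and 238 CPM, the UIR pools 114, 87.0 and 144 CPM and the UUO pools 108, 130 and 80.7 CPM. It fell by 1.06 on the log2 scale in UIR (SE 0.24, adjusted p = 0.003882) and by 1.23 in UUO (SE 0.24, 0.001229), with no overlap. Both calls were lost with a mitochondrial limit of 50% (-0.68 and -0.90, adjusted p = 0.3176 and 0.1185) and with both N libraries left out (-0.77 and -0.93, 0.1119 and 0.05254). The make-up of stroma differed: 80.2% of control cells were in the stroma cluster Fibro 3, which held 17.8% of UIR and 25.1% of UUO cells. Within Fibro 3, *Cited2* stood at 240.4 to 398 CPM in 3 control pools, 91.2 to 263 CPM in UIR and 193 to 313 CPM in UUO, which overlapped. In the tubule *Cited2* was high in CD-P, where the UUO pools (208, 169 and 209 CPM) lay below the control pools (243 to 275 CPM, log2 -0.50, adjusted p = 0.008441). This call was lost without UUO 1 (-0.39, 0.07237) or both AN libraries (-0.45, 0.0572), and principal cell markers were lower in the same pools. In CD-I it went from 33.7 to 134 CPM to 8.15 to 27.8 CPM in UUO (log2 -2.40, adjusted p = 0.00241), but not when doublets were kept (-0.40, 0.1336). Markers of DT were lower in the same CD-I pools, as given below for *Lhx1*. The DT value in UUO (log2 -0.61, adjusted p = 0.0009371) overlapped control in CPM (183 to 222 against 203 to 291) and was -0.16 (0.3213) with library totals in place of TMM factors. In LOH, PT and frTEC it was not called.

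*Lhx1* (ENSMUSG00000018698, chromosome 11, 84518284 to 84525535, minus strand), a LIM-homeobox factor of the renal vesicle and distal nephron, was the member that fell in DT, CD-P and CD-I in both injuries. In DT the control pools held 527, 290, 449, 347 and 436 CPM, the UIR pools 111, 131 and 175 CPM and the UUO pools 68.3, 114 and 116 CPM. It fell by 1.96 on the log2 scale in UIR (SE 0.18, adjusted p = 6.176e-09) and by 2.50 in UUO (SE 0.19, 1.184e-10). *Lhx1* is among the leading genes of the sub-cluster that held 62.2% of control DT cells and 6.86% of UIR and 4.31% of UUO DT cells, so the fall moved with that shift inside DT. In CD-P it went from 121, 84.4, 118, 76.6 and 85.1 CPM to 33.5, 46.0 and 55.3 CPM in UIR and 50.5, 55.8 and 61.8 CPM in UUO (log2 -1.17 and -0.86, adjusted p = 0.0001094 and 0.0008198), in pools whose principal cell markers were lower as well. In CD-I (control 30.3 to 67.5 CPM, injured 17.6 to 40.8 CPM) the ranges overlapped, and the calls (-0.90 and -1.08, adjusted p = 0.04737 and 0.01505) were lost in 12 and 5 alternatives. With doublets kept they were -0.32 (0.2311) and -0.15 (0.5874). Among the others the UIR call was lost without control Ctrl (-0.76, 0.1197), N2 (-0.92, 0.07682), AN1 (-0.82, 0.1119) or AN2 (-0.98, 0.05412), the unnumbered UIR library (-0.76, 0.14) or UIR 2 (-0.79, 0.1406), and the UUO call without the unnumbered UUO library (-0.92, 0.05573) or UUO 1 (-0.88, 0.0797). In the CD-I pools DT markers summed to 226 to 700 CPM in control, 71.5 to 627 in UIR and 40.8 to 153 in UUO. Principal cell markers there summed to 54.5 to 3174 CPM in control, 281 to 3075 in UIR and 187 to 789 in UUO. The part of both in the members' changes in CD-I was not tested.

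In PT *Lhx1* went from 24.5 to 33.2 CPM in control to 15.4, 20.9 and 22.2 CPM in UIR (log2 -0.55, adjusted p = 0.03012). The call was lost in 12 alternatives, including without control N1 (-0.53, 0.06175), N2 (-0.50, 0.05862) or AN2 (-0.51, 0.0699) and without each UIR library (-0.45 to -0.64, 0.05817 to 0.1249). In LOH the gene was near zero, with 3 control UMIs, 0.277 to 3.21 CPM in UIR and 4.15 to 8.47 CPM in UUO. UUO lay above UIR there by 2.16 ± 0.47 (adjusted p = 0.009834), a call lost without UIR 2 (1.85, 0.07793).

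*Npnt* (ENSMUSG00000040998, chromosome 3, 132881745 to 132950291, minus strand) was unevenly spread over the segments. In control it was highest in CD-P (1443, 1575, 1614, 1417 and 1477 CPM) and in 3 frTEC pools (1217, 779 and 1255 CPM), low in DT (49.9 to 97.3 CPM) and close to nil in LOH (12.3, 4.68, 10.8, 0 and 0 CPM). After injury it fell in CD-P and rose in LOH and DT. In CD-P it went down to 767, 1044 and 1186 CPM in UIR and 597, 747 and 799 CPM in UUO (log2 -0.66 ± 0.15 and -1.16 ± 0.15, adjusted p = 0.002426 and 1.915e-06). Principal cell markers were lower in the same pools, at 15850 to 24380, 7797 to 8855 and 3549 to 4032 CPM. The UIR fall of *Npnt* was lost when cells were named one by one (-0.43, 0.07682). In LOH it rose to 50.2, 59.9 and 67.1 CPM in UIR and 73.5, 72.2 and 186 CPM in UUO (3.02 ± 0.55 and 3.89 ± 0.51, adjusted p = 0.000116 and 1.051e-06). In DT it rose to 179, 297 and 378 CPM in UIR and 417, 430 and 503 CPM in UUO (1.62 ± 0.20 and 2.23 ± 0.19). The DT pools also held more principal cell markers after injury (72.1 to 231 CPM in control, 1648 to 1983 in UIR and 1289 to 1755 in UUO) and more failed-repair markers, and their part in the *Npnt* rise was not tested. None of these 6 comparisons overlapped. In PT, where the control level of 48.4 to 69.2 CPM was close to that of DT, *Npnt* was not called (UIR 52.7 to 86.0 CPM, UUO 44.4 to 85.1 CPM). It was not called in stroma (0 to 37.5 CPM in control) or CD-I (20.8 to 252 CPM) either.

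In frTEC *Npnt* stood at 607, 338 and 414 CPM in UIR, where it did not pass (-1.26 ± 0.30, adjusted p = 0.1005), and at 282, 225 and 138 CPM in UUO, where it did (-2.34 ± 0.32, 0.008875). Without control AN2 the UUO call was lost (-2.26, 0.05221). The frTEC class changed its parts, with 84.8% of control cells, 39.1% of UIR and 51.6% of UUO cells being thin limb-like. Within thin limb-like pools *Npnt* went from 1314 and 1255 CPM in control to 635, 198 and 470 CPM in UIR and 281 and 170 CPM in UUO (log2 -1.59 and -2.51, adjusted p = 0.00237 and 0.0001651). The make-up of this sub-class differed too, in that a sub-cluster led by *Aqp1* and *Fst* supplied 57 of the 78 control, 73 of the 214 UIR and 32 of the 100 UUO cells. Thin limb markers in its pools summed to 7267 and 7357 CPM in control, 3197 to 4080 in UIR and 2440 and 3180 in UUO, and principal cell markers to 1959 and 2062, 492 to 1093, and 359 and 594 CPM. Markers of principal cells moved with *Npnt* in the whole of frTEC as well, summing to 864 to 1959 CPM in control, 152 to 949 CPM in UIR and 96.6 to 570 CPM in UUO. The part of these shifts in the result was not tested.

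Whether a distal segment changed more or less than PT was tested for each member in 1 model over both classes with the library as a block. Of 74 such differences 37 passed. The share of all genes that passed was 18.6% (UIR) and 12.6% (UUO) for LOH, 22.5% and 13.7% for DT, 10.2% and 10.8% for CD-P and 7.62% and 6.52% for CD-I. *Prom1* rose more in LOH than in PT, by 1.71 ± 0.22 in UIR (adjusted p = 1.863e-12) and 1.995 ± 0.34 in UUO (1.925e-07). The UUO difference was lost with a clustering resolution of 2 (0.71, 0.3855) and with barcodes of at least 1000 UMIs (0.39, 0.5721). *Pax8* did so by 2.17 ± 0.24 (1.026e-17) and 2.54 ± 0.29 (6.066e-16), and *Npnt* by 2.83 ± 0.38 (5.66e-12) and 4.07 ± 0.40 (2.361e-21). *Lhx1* fell more in DT than in PT, by 1.38 in UIR (2.52e-07) and by 1.79 in UUO (0.001716). Without UUO 1 the *Lhx1* difference in UUO was -0.92 (0.5549). On the log2 scale *Sox9* rose less in LOH than in PT, with differences of -2.85 ± 0.80 (0.003672) and -2.93 ± 0.90 (0.01394). Without UUO 2 the latter was -2.58 (0.0778), and with cells named one by one -2.57 (0.08376). The PT fold starts from control pools of 0 to 1.12 CPM. In UIR *Sox9* stood at 5.01 to 9.95 CPM in PT and 10.8 to 22.4 CPM in LOH, where control held 2.70 to 8.005 CPM. *Cd24a* also had negative differences in LOH (-1.51 and -1.76, the latter -1.61 with an adjusted p of 0.05113 without UUO 2) and CD-P (-2.35 and -2.35), but in UIR these set the distal change against a PT signal 0.793 to 0.916 times that of free RNA. In UUO the PT signal was 0.789 to 2.21 times that of free RNA. With free RNA subtracted no *Cd24a* UMI was left in the control and UIR pools of PT. The UIR differences fitted then (1.23 in LOH, 1.98 in DT, 0.41 in CD-P and 1.34 in CD-I) hold no PT effect. Nothing is read from their sign.

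**Figure D4:**
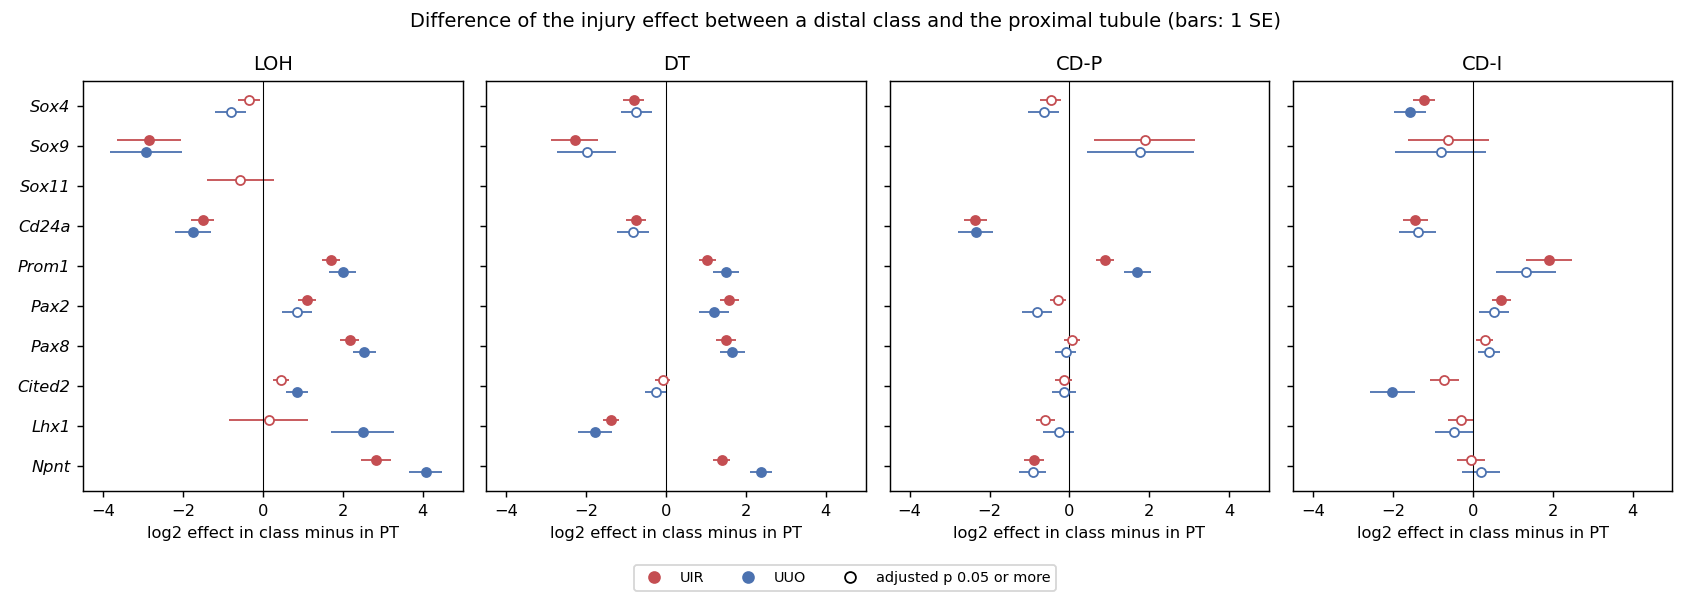
Log2 injury effect in LOH, DT, CD-P or CD-I minus that in PT (horizontal axis, bars of 1 SE) for each gene, with UIR in red and UUO in blue and open circles where the difference did not pass; the *Sox11* difference in UUO, whose error was too wide for the axis, is left out. *Npnt*, *Pax8* and *Prom1* lie to the right of zero in LOH and DT, *Lhx1* lies to the left in DT, and the *Cd24a* points are set against a PT level that was 0.793 to 0.916 times that of free RNA in UIR and 0.789 to 2.21 times in UUO.

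UIR and UUO were also compared with each other. Of 70 pairs 5 passed: *Sox4* and *Sox9* in DT, *Lhx1* in LOH and *Pax2* in CD-P, given above, and *Cd24a* in stroma (60.9, 60.8 and 57.6 CPM in UIR, 29.7, 20.8 and 24.9 CPM in UUO, log2 -1.28 ± 0.31, adjusted p = 0.03459). The *Cd24a* stroma level in UUO was 0.765 to 1.49 times that of free RNA. Its call was lost without control N1 (-1.28, 0.05727), without each UIR library (-1.24 to -1.31, 0.05021 to 0.09811), without UUO 1 (-1.15, 0.1619) and without UUO 2 (-1.27, 0.1157). Among other settings, *Sox9* and *Lhx1* were lost with only the compared groups in the fit (1.02, 0.05071, and 2.16, 0.09421), *Pax2* with doublets kept (-0.49, 0.1668) and *Cd24a* with a mitochondrial limit of 50% (-1.23, 0.1492). The share of all genes that passed between the injuries was 0.0516% in PT, 2.21% in LOH, 3.56% in DT, 5.57% in CD-P and 0.722% in CD-I. It was 0.0% in frTEC, 0.0906% in its thin limb-like part and 2.04% in stroma. In the stroma clusters Fibro 1, 2 and 3 it was 3.2%, 0.468% and 0.0883%. No member passed in PT, CD-I, frTEC or the stroma clusters Fibro 1, 2 and 3, which does not show that the injuries act alike there.

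The share of cells with at least 1 UMI of a gene followed the levels. After thinning every cell to 1000 UMIs, *Sox4* was seen in 13.6 ± 6.8% of control LOH cells (SD, n = 5), 38.9 ± 0.3% of UIR (n = 3) and 47.9 ± 2.2% of UUO cells (n = 3), beside 46.9%, 91.7% and 96.1% without thinning. *Cd24a* was seen in 39.8 ± 6.8%, 63.5 ± 2.4% and 62.5 ± 4.0%. *Prom1* was seen in 6.98 ± 3.04%, 33.3 ± 3.7% and 39.2 ± 3.0% of LOH cells. In macrophages, taken as the background, the *Sox4* share was 0 to 1.84% over the 11 libraries. In exact two-sided permutation tests over libraries, each of these LOH differences from control had p = 0.0357, the smallest that 3 against 5 libraries allow. With adjustment over all pairs of a gene and a class or sub-class compared in that injury they did not pass (0.143 in UIR and 0.13 in UUO), and neither did any other pair.

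The levels of *Sox4* and *Cd24a* ran together over the pools of the tubular classes. Stroma was not part of this comparison, and its UUO pools held 404, 213 and 223 CPM of *Sox4* and 29.7, 20.8 and 24.9 CPM of *Cd24a*. Over the 64 pools of PT, LOH, DT, CD-P, CD-I and frTEC, Pearson's r of log2(CPM + 1) was 0.93, a description in which pools share libraries and depth. Of 6703 genes compared, the most like *Sox4* were *Cldn7* (r = 0.96), *Cd9* (0.96), *Gm26735* (0.95), *Ddah2* (0.95) and *Tubb2b* (0.94). *Gm26735* lies over *Sox4* on the other strand, and whether reads of both were mixed was not tested. The most like *Cd24a* were *Lgals3* (0.97), *Iqgap1* (0.97), *Epcam* (0.95), *Cd9* (0.95) and *Cldn7* (0.95), and the most like *Sox9* were *Mgat4b* (0.79), *Klf2* (0.78), *Map4k4* (0.77), *Net1* (0.77) and *Pigr* (0.77).

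**Figure D5:**
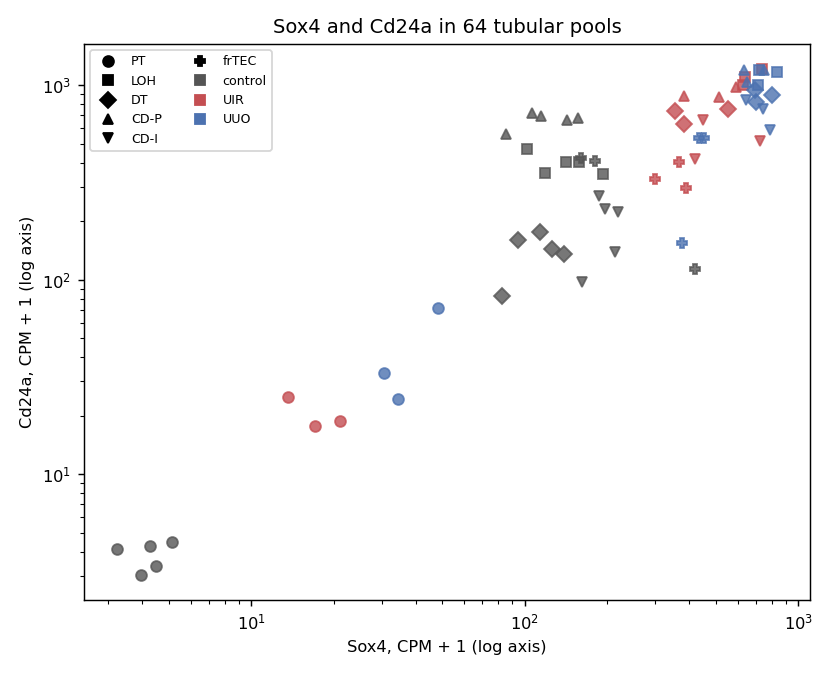
*Cd24a* (vertical) against *Sox4* (horizontal), both as CPM + 1 on log axes, in the 64 pools of PT, LOH, DT, CD-P, CD-I and frTEC, with the class as the symbol and the group as the colour. PT pools lie at the lower left, between 2.04 and 70.5 CPM of *Cd24a*, and LOH pools of UIR and UUO at the upper right, at 1001 CPM or more.

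The order of *Sox4* levels in control kidneys placed PT last (3.21 ± 0.69 CPM) and CD-I among the highest (195 ± 23). DT (110 ± 23), CD-P (120 ± 29), LOH (141 ± 35) and stroma (167 ± 63) lay within their spreads of each other. For *Lhx1* the order was DT (410 ± 93 CPM), CD-P (97.0 ± 20.8), CD-I (47.1 ± 14.9), PT (29.5 ± 4.2) and then LOH and stroma near zero. For *Pax8*, frTEC (388 ± 79 CPM) and CD-P (163 ± 22) stood above PT (67.4 ± 9.5) and CD-I (64.9 ± 14.1), which did not differ beyond their spread, and LOH (32.6 ± 16.8) and DT (21.2 ± 8.9) came last. Of the control frTEC cells 84.8% were thin limb-like, and the thin limb-like pools alone held 433 and 451 CPM of *Pax8*. *Pax2*, *Pax8*, *Cited2*, *Sox4*, *Cd24a* and *Npnt* were singled out by the study in frTEC of these samples, so their presence there is not independent evidence.

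Other genes of kidney development were counted in the same way, to be read beside the shares of all genes called in each class. Of 12 cap mesenchyme genes at most 5 had enough UMIs in any class. *Sall1*, a progenitor factor, had no control UMI in CD-P and stood at 13.5 CPM in UIR and 19.7 in UUO (adjusted p = 0.000113 and 7.834e-06), and *Hoxd11* in stroma went from 1.34 CPM to 79.4 and 91.9 CPM. *Wt1* in stroma went the other way, from 78.2 CPM to 15.8 and 23.6 CPM. In UUO *Wt1*, which podocytes express, also rose in PT (0.288 to 4.72 CPM, in pools whose podocyte markers summed to 3.36 to 11.8 CPM in control and 0 to 312 CPM in UUO) and *Hoxd11* in DT (5.02 to 15.6 CPM), and no gene of the list was called in LOH, CD-I or frTEC. In stroma 1 of 5 tested rose and 1 fell in UIR, and 2 rose and 1 fell in UUO. Of 15 early nephron genes (renal vesicle to S-shaped body), 12 were tested in LOH, where 3 rose and 2 fell in UIR and 3 rose and 4 fell in UUO, beside 32.3% and 37.2% of all genes called, and the list's median log2 fold change was -0.03 and -0.23. In DT 8 were tested, with 4 up and 1 down in UIR and 5 up and 2 down in UUO. *Wnt4*, the inducer of the mesenchymal to epithelial transition, rose in LOH (1.49 CPM to 39.1 and 50.7), in DT (5.40 to 76.3 and 110) and in CD-P (55.6 to 150 and 201). *Ccnd1*, a cyclin, fell in LOH (282 to 73.1 and 86.4 CPM) and in CD-P (580 to 149 and 82.9 CPM). In CD-P 1 rose and 3 fell in UIR and 2 rose and 3 fell in UUO of 8, in CD-I 1 and 1, and 2 and 4, of 8, and in PT 3 and 1 of 12 rose. In frTEC none passed in UIR and 1 of 10 fell in UUO, and in stroma 3 rose and 2 fell in UIR and 3 rose and 1 fell in UUO of 5.

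Of 13 genes of the ureteric tip and trunk, *Emx2* rose in LOH (48.8 CPM to 132 and 141) and in DT (15.2 to 166 and 215), while *Emx1* fell in DT (252 to 151 and 74.9). In LOH 1 of 8 rose in UIR and 2 rose and 1 fell in UUO, and in DT 3 rose and 2 fell of 9 in each injury. Of all genes, 32.3% (UIR) and 37.2% (UUO) were called in LOH, 36.7% and 42.6% in DT and 16.4% and 32.2% in CD-P. In frTEC 0.784% and 2.57% were called and in stroma 16.7% and 18.1%, and the Sox counts below are read beside the same shares. In CD-P none of 8 rose and 2 (UIR) and 5 (UUO) fell. In frTEC 1 of 5 fell in each injury, *Wnt11*, from 88.1 CPM to 5.08 and 2.94 CPM. None of 6 was called in PT or in CD-I, and in stroma 1 of 4 rose and 1 fell in each. No other Sox factor rose in a tubular class. Of 12 listed, 2 to 4 were tested per class, none passed in PT or CD-I, 1 of 4 fell in LOH in UIR and 2 in UUO, and 1 fell in DT and 1 in frTEC in UUO (*Sox6* in each). *Sox6* and *Sox12* fell in CD-P in both injuries (*Sox6* from 164 CPM to 94.0 and 59.97, *Sox12* from 40.2 to 18 and 21). In stroma *Sox6* rose in UIR (2.68 to 16.9 CPM) and *Sox13* fell in both (80.3 to 31.1 and 26.2 CPM).

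Among 8 receptors and basement membrane partners of nephronectin, all 5 tested rose in DT in both injuries, where 36.7% and 42.6% of all genes were called. In LOH 3 of 4 rose in both (all genes 32.3% and 37.2%), in CD-P 2 and 4 of 5 (16.4% and 32.2%) and in CD-I 1 and 3 of 4 (12.5% and 22.9%). *Itgav*, an integrin alpha chain, went from 70.0 CPM to 302 and 367 CPM in DT and from 81.3 to 197 and 349 CPM in CD-P. *Itga8*, the alpha chain of the known nephronectin receptor, fell in stroma from 1430 CPM to 159 and 222 CPM. *Itga8* is among the leading genes of a Fibro 3 cluster, and Fibro 3 held 80.2% of control but 17.8% of UIR and 25.1% of UUO stroma cells, so the fall moved with that shift. There 1 of 7 rose in UIR and 2 in UUO, and none of 5 was called in PT or frTEC. Of 7 reported SoxC targets and partners of CITED2, *Tead2* rose in DT (0.302 CPM to 4.38 and 17.1), had no control UMI in LOH and stood there at 13.6 and 27.1 CPM, and *Hif1a* fell in CD-P (437 to 244 and 174 CPM). Over the list 1 and 2 of 5 rose in LOH, 3 and 3 of 5 in DT, none and 2 of 5 in CD-P (1 fell in each) and 1 and 1 of 5 in CD-I (1 fell in each). None of 4 was called in PT or frTEC, and in stroma none of 6 passed in UIR and 2 rose in UUO. Of 3 CD24 partners only *Lyn*, a Src-family kinase, was tested, and it rose in DT (6.15 CPM to 18.8 and 21.6), fell in stroma (49.3 to 20.2 and 20.9) and was not called in the other classes.

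Genes of tubular injury, mature transport and proliferation were counted beside the same shares of all genes called in UIR and UUO, which were 11.6% and 5.43% in PT, 32.3% and 37.2% in LOH, 36.7% and 42.6% in DT, 16.4% and 32.2% in CD-P, 12.5% and 22.9% in CD-I, 0.784% and 2.57% in frTEC and 16.7% and 18.1% in stroma. Of 14 injury genes, 11 of 13 tested rose in PT in UIR and 9 in UUO, 11 of 13 in LOH in each, 10 of 10 in DT in each, 9 and 10 of 10 in CD-P and 8 and 9 of 10 in CD-I, where 1 fell. In frTEC 1 and 4 of 14 rose, and in stroma 5 (with 1 lower) and 4 of 10. Of 18 mature transport genes, 11 of 15 fell in LOH in each injury, 9 and 10 of 16 in DT (3 and 2 rose), 9 and 15 of 17 in CD-P (1 rose in each) and 8 and 14 of 17 in CD-I. In PT 2 fell and 2 rose in UIR and 5 of 15 fell in UUO, in frTEC 1 and 2 of 10 fell, and in stroma 1 and 7 of 10 fell. Of 9 proliferation genes, 3 of 6 tested rose in PT in each injury, and in DT, CD-P and CD-I only *Pcna* was tested and it rose in UUO (DT 12.3 to 31.2 CPM); in LOH 2 and in frTEC and stroma 1 were tested, and none was called.

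Markers of other cell classes moved with the members in the LOH pools. Thin limb markers summed to 33.8 to 126 CPM in control, 510 to 600 in UIR and 690 to 1103 in UUO. Failed-repair markers summed to 10.8 to 42.7, 332 to 437 and 396 to 548 CPM, urothelial markers to 0 to 10.8, 103 to 139 and 145 to 215 CPM, and parietal epithelial markers to 0 to 5.63, 52.9 to 101 and 101 to 151 CPM. The loop's own markers summed to 17860 to 24340, 12820 to 13190 and 7065 to 8661 CPM. Markers of DT were lower in LOH after injury (356 to 776 CPM in control, 133 to 163 in UIR and 98.2 to 167 in UUO). Their part in the members' changes was not tested.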

How the data were processed

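The data were 11 droplet single-cell RNA libraries from mouse kidney, 5 naive control, 3 UIR and 3 UUO, grouped by their labels. The authors deposited whole-number UMI counts per gene and barcode, empty droplets included. The submitters' processing notes name Cell Ranger 3.1.0 and mm10; the study's text names another version. The removal of ambient RNA and doublets that the study describes was not in these deposited counts.

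Cells were called by a UMI cutoff set per library, and further barcodes of at least 500 UMIs were taken where they differed from the empty-droplet profile. Those with at most 30% mitochondrial UMIs, few hemoglobin UMIs and at least 200 genes were kept, and the 7.5% with the highest doublet scores were removed. Cells were clustered (2000 variable genes, 40 components, 20 neighbours, Leiden resolution 1) and named by marker genes, so clusters and members share the same cells. The members, the marker genes and the genes of the lists were left out of the variable genes. UMIs were summed per class and library (at least 20 cells) and tested with edgeR 4.0.16 (quasi-likelihood, TMM, its filter on low counts, the 3 groups in 1 model), with Benjamini-Hochberg adjustment over all genes of the class and a threshold of 0.05. The CPM levels carry no TMM factor, so fitted changes need not match them. Mean log2 factors of UIR and UUO lay above control by 0.38 and 0.45 in DT, and by 0.25 and 0.25 in LOH. The shift was 0.26 and 0.35 in CD-I, 0.07 and 0.09 in CD-P, and -0.17 and -0.12 in stroma. A positive shift lowers the fitted change. Differences between a distal class and PT were an interaction with the library as a block. Shares of cells were compared on cells thinned to 1000 UMIs by exact two-sided permutation. Free RNA in a pool was estimated from the empty-droplet profile and from markers of other classes. For PT these were markers of leukocytes, endothelium and stroma. For LOH, DT, CD-P and CD-I they were markers of PT, leukocytes and endothelium. For frTEC and its parts they were those of leukocytes and endothelium, and for stroma those of PT, LOH, DT, CD-P, CD-I, leukocytes and endothelium. DESeq2 1.42.0 was an alternative, R 4.3.3 and Python 3.11.15 were used, and the test script was tested on simulated data.

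Total depth was 49503312 to 117043590 UMIs per library. Counting intervals (95%) and the floor of 3 UMIs cover counting error only. Every member is described. From each of 10 gene lists at most 4 genes per class were named, those called with the largest change. The members and lists were chosen with earlier results of these data known. The study's methods give 3 mice per injury and 5 naive mice, as many as there are libraries, but no label ties a library to a mouse. The p-values measure the spread between libraries. The control libraries carry 3 name prefixes (Ctrl, N and AN) that the injured ones lack, and no label gives a batch, so a batch and injury cannot be told apart.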

Additional observations from a re-analysis of the deposited data

Results flagged for a closer look

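Within the control group 9 of 52 sets of libraries held a library far from the others. Chance gives about 1 in 20 for spread-out values, but that rate does not hold for sets near 0, where 1 UMI sets a library apart, so no excess is read from the 9. *Sox9* stood at 1.117 CPM in AN2 in PT (the others at 0 to 0.1788), at 1.668 CPM in AN2 in CD-P (the others at 0) and at 5.191 CPM in Ctrl in CD-I (the others at 0 to 1.468). *Sox11* stood at 0.1015 CPM in AN2 in PT and *Pax8* at 7.918 CPM in AN1 in stroma, where the other control libraries were at 0. N1 stood apart for *Prom1* in CD-P (120.0 CPM, the others at 67.55 to 70.07), for *Pax2* in PT (22.8 CPM, the others at 17.7 to 18.98) and for *Pax2* in CD-P (248.8 CPM, the others at 179.0 to 198.6). N2 stood apart for *Cited2* in stroma (371.0 CPM, the others at 214.5 to 237.5).

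In 37 cases a gene's injury effect in a distal class differed from that in PT by the test of the difference itself (edgeR, adjusted p below 0.05). For *Npnt* the difference on the log2 scale was 2.834 (UIR) and 4.072 (UUO) in LOH, 1.386 and 2.373 in DT and -0.8884 in CD-P in UIR, the last lost without the unnumbered UIR library (-0.89, adjusted p = 0.05729) or UIR 1 (-0.78, 0.1114). For *Pax8* it was 2.172 and 2.544 in LOH and 1.502 and 1.66 in DT. *Prom1* had 1.708 and 1.995 in LOH, 1.032 and 1.501 in DT, 0.8946 and 1.703 in CD-P and 1.913 in CD-I in UIR. The *Prom1* value in CD-P in UIR was lost without the unnumbered UIR library (0.73, 0.0596), and that in CD-I without UIR 1 (0.99, 0.3408), control N1, N2, AN1 or AN2, or the unnumbered UUO library (1.77 to 2.17, 0.05298 to 0.08392).

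*Pax2* had differences of 1.109 in LOH and 1.584 in DT in UIR, 1.201 in DT in UUO and 0.7194 in CD-I in UIR. The DT value in UUO was lost without UUO 1 (1.12, adjusted p = 0.1888), and the CD-I value without 7 of the 11 libraries in turn, which are control Ctrl, N1, N2 and AN1, the unnumbered UIR library, UIR 1 and UUO 2 (0.54 to 0.73, 0.05239 to 0.2842). *Lhx1* had -1.384 and -1.788 in DT, the latter lost without UUO 1 (-0.92, 0.5549), and 2.495 in LOH in UUO, lost without control Ctrl (2.13, 0.07002), control N2 (2.11, 0.07601) or UUO 2 (2.11, 0.09767). *Cited2* had 0.8606 in LOH in UUO, lost without control N2 (0.71, 0.1012) or UUO 2 (0.84, 0.07041). In CD-I in UUO it had -2.01, lost without the unnumbered UUO library (-2.08, 0.05584) or UUO 1 (-1.04, 0.5295).

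*Sox9* had -2.851 and -2.933 in LOH, the latter lost without UUO 2 (-2.58, adjusted p = 0.0778), and -2.286 in DT in UIR. These are set against control PT pools that held 0 to 1.117 CPM of *Sox9*. *Sox4* had -0.8091 in DT in UIR, lost without control N2 (-0.73, 0.06277), control AN2 (-0.63, 0.1005) or UIR 1 (-0.34, 0.4524). In CD-I it had -1.21 in UIR, lost without UIR 1 (-0.86, 0.09483), and -1.58 in UUO, lost without UUO 1 (-1.53, 0.1516) or UUO 2 (-1.53, 0.07757). *Cd24a* had -1.505 and -1.758 in LOH, -0.7592 in DT in UIR, -2.353 and -2.349 in CD-P and -1.442 in CD-I in UIR. Of these, the LOH value in UUO was lost without UUO 2 (-1.61, 0.05113) and the DT value without control AN1 (-0.59, 0.1135) or the unnumbered UIR library (-0.53, 0.2135).

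Other settings ended some of these differences too. With barcodes of at least 1000 UMIs *Prom1* was 0.39 (adjusted p = 0.5721) in LOH in UUO, 0.84 (0.1033) and 0.64 (0.2852) in DT, 0.29 (0.6558) and 0.03 (0.9913) in CD-P and 0.84 (0.418) in CD-I in UIR. *Pax8* was then 0.01 (0.9929) and 0.35 (0.3842) in DT, *Npnt* -0.16 (0.6687) and 0.60 (0.08983) in DT, *Pax2* 0.05 (0.9252) in DT in UUO and 0.61 (0.1184) in CD-I in UIR, and in LOH in UUO *Cited2* was -0.22 (0.618) and *Lhx1* 1.247 (0.3921). With a clustering resolution of 2 *Prom1* was 0.71 (0.3855) in LOH in UUO, 0.78 (0.1852) and 0.35 (0.7007) in DT, 0.43 (0.5964) and 0.22 (0.8458) in CD-P and 1.44 (0.4007) in CD-I in UIR. *Npnt* in DT in UIR was then 0.43 (0.4209), *Pax8* in DT in UUO 0.89 (0.05198), *Pax2* 0.76 (0.1001) in DT in UUO and 0.61 (0.1651) in CD-I in UIR, and *Cited2* in LOH in UUO 0.23 (0.723).

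With free RNA subtracted *Sox4* was -0.59 (0.3404) in DT and -0.96 (0.2191) in CD-I in UIR, beside a PT level 1.19 to 2.17 times that of free RNA. *Npnt* in CD-P (-0.80, 0.0615), *Prom1* in CD-I (2.115, 0.07845) and *Pax2* in CD-I (0.75, 0.06998), all in UIR, and *Cited2* in CD-I in UUO (-2.08, 0.06271) were then not called either. With a mitochondrial limit of 50% *Sox4* was -0.21 (0.7875) in DT and -0.79 (0.3274) in CD-I in UIR, *Cd24a* -0.64 (0.1738) and -0.57 (0.3414) in the same classes, *Prom1* 1.10 (0.1447) in CD-I in UIR, and in UUO *Pax2* 0.54 (0.2167) in DT and *Cited2* 0.67 (0.05132) in LOH. A limit of 15% ended *Sox4* (-0.18, 0.8705) and *Cd24a* (-0.66, 0.4788) in DT in UIR and *Pax2* in DT in UUO (0.92, 0.4425). With doublets kept *Prom1* was 0.32 (0.3803) and 0.33 (0.3874) in CD-P, *Lhx1* 0.95 (0.4289) and *Cited2* 0.28 (0.3577) in LOH in UUO, *Cited2* -0.44 (0.1118) in CD-I in UUO and *Pax2* 0.47 (0.1185) in CD-I in UIR. With cells named one by one *Sox9* (-2.57, 0.08376) and *Lhx1* (1.23, 0.4495) in LOH in UUO, and *Sox4* in DT (-0.35, 0.3726) and *Npnt* in CD-P (-0.56, 0.1102) in UIR, were not called.

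DESeq2's Wald test did not call *Cited2* and *Lhx1* in LOH in UUO, *Cd24a* and *Sox4* in DT in UIR, *Pax2* in DT in UUO, *Prom1* in CD-P in UIR, and *Prom1* and *Pax2* in CD-I in UIR (adjusted p from 0.08784 to 0.3286). *Cited2* in LOH in UUO was also lost with DESeq2 size factors (0.1089) and with only the groups compared in the fit (0.05846), and *Cd24a* in DT in UIR without a filter on low counts (0.05191). Leaving out both N libraries ended 7 and leaving out both AN libraries 9 of the differences (adjusted p from 0.05736 to 0.2569). The cause of these losses was not tested.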

How the results depend on the processing

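Of 114 comparisons of a gene in a class that passed, 62 passed in each of 27 alternatives that gave a value, 52 were lost in 1 or more, and 7 changed sign in 1 or more. With a mitochondrial limit of 15% the numbers passing were 12 in UIR, 13 in UUO, 11 for distal minus PT and 3 for UUO against UIR; LOH, CD-P, CD-I and frTEC had too few control pools and could not be fitted. UUO against UIR, 5 as reported, gave 19 without a filter on low counts, 13 with a limit of 50%, 9 with at least 1000 UMIs per barcode, 9 with a replicate block, and 3 with only the groups compared or with cells named one by one. The cause was not tested. Leaving out 1 library gave 28 to 35 in UIR, 35 to 40 in UUO, 31 to 38 for distal minus PT and 1 to 7 for UUO against UIR (1 without UIR 1, 3 without UIR 2, 3 without UUO 1). Signs changed for *Pax2* in CD-P in UIR (0.009675, cells named one by one), for the *Cd24a* differences from PT in UIR with free RNA subtracted (1.232 in LOH, 1.981 in DT, 0.4054 in CD-P and 1.343 in CD-I), and with at least 1000 UMIs for *Cited2* in LOH in UUO (-0.2173) and *Npnt* in DT in UIR (-0.1635), both minus PT. Subtraction left no *Cd24a* UMI in control and UIR pools of PT, so nothing is read from those *Cd24a* signs. Over the 7 classes, UIR and UUO libraries of the same number deviated with r from -0.069 to 0.719 (number 1), from -0.247 to 0.292 (number 2) and from -0.048 to 0.661 (the unnumbered pair, positive in 6 of 7). All 3 pairs were over 0.1 in LOH alone, where UIR 1 still correlated best with UUO 2, so numbers were not taken to pair libraries. With the replicate block 35 passed in UIR, 38 in UUO and 38 for distal minus PT, and *Sox4* in stroma in UUO (0.86, adjusted p = 0.05372) and *Lhx1* in CD-I in UIR (-0.87, 0.05811) were not called. Library totals in place of TMM factors, chosen after seeing the data, gave 34 and 38 against control. PT in UUO (190 cells) and the control pools of frTEC and stroma limit what could be seen.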

Other observations

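Among the tubular cells, 2 sub-clusters whose leading genes were mostly those of stroma took no class name. One was led by *Vim*, *Tagln*, *Tnc* and *Acta2* (15 control, 195 UIR and 81 UUO cells) and the other by *Mgp*, *Col1a2*, *Igfbp2* and *Lsp1* (0, 71 and 39 cells). Joined, they gave 3 UIR pools (266 cells) and 2 UUO pools (111 cells), with no control pool to compare. Among the classes that could be named, their best score was that of frTEC (0.4794 and 0.217). Parietal epithelium, which was not such a class, scored 1 and 0.5216. The pools summed to 2817 to 4211 CPM (UIR) and 2881 and 3493 CPM (UUO) of stroma markers. They held 1881 to 2499 and 2530 and 2534 CPM of failed-repair markers, and 1598 to 2021 and 1280 and 2137 CPM of parietal epithelial markers. In them *Sox4* stood at 507 to 591 CPM in UIR and at 608 and 647 CPM in UUO, *Sox11* at 39.2 to 56.2 CPM and at 54.7 and 71.4 CPM, and *Pax8* averaged 265 and 292 CPM.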
